A study of Mus musculus with 9 samples.

Results

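Transcripts of 6 genes of gamma delta and innate-like T cells, Cd163l1, Trdc, Il17a, Il23r, Sox13 and Zbtb16, were followed across 9 libraries of mouse bladder tumours. They were found by gene name in a table of 44806 entries, each name matched 1 entry, and 5 of the 6 passed the filter on low counts. Zbtb16 did not pass. The 6 genes were chosen by their counts in these same libraries and from the same comparisons, so their levels and fold changes are given as a description, without a test, and support nothing beyond themselves. Tumours grew from MB49, a mouse bladder cancer cell line, which the labels give as overexpressing HER2 in all 3 groups. Their hosts were given PBS as the control, Lipo-BiTE, or Lipo-TriTE, and each group has 3 libraries. BiTE commonly stands for a bispecific T cell engager, a molecule with one arm for T cells and one for tumour cells. The labels spell out neither agent, and dose, time, age and sex were found in none of the sources used here. No group was given a carrier without the agent, so the carrier and the agent cannot be told apart.

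Gamma delta T cells carry a T cell receptor of a gamma and a delta chain in place of the alpha and beta chains of conventional T cells. Many of them are programmed in the thymus to make interleukin 17 quickly when interleukin 23 and interleukin 1 reach them, with SOX13 among the transcription factors of their lineage, and they live mainly in barrier tissues such as skin, lung and mucosa. Innate-like T cells, among them natural killer T cells and mucosal-associated invariant T cells, share this readiness and use the transcription factor PLZF. Of the 6 genes, Cd163l1 encodes SCART1, a scavenger receptor on the surface of gamma delta T cells, and Trdc the constant region of the delta chain. Il17a encodes the cytokine interleukin 17A, Il23r the receptor subunit specific to interleukin 23, Sox13 the lineage factor SOX13 and Zbtb16 the factor PLZF.

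Libraries held 13152783 to 20273548 counts. Levels are given as CPM, counts per 1000000 of the library total after TMM scaling. A total of 3 counts, the lowest taken as detectable here, equalled 0.146 to 0.237 CPM. Intervals and this floor cover counting error only. The series' design text speaks of sorted T cells and the labels of frozen tumour tissue. Markers of other cells were found in every library: epithelial and tumour markers summed to 398 to 975 CPM and fibroblast markers to 936 to 3171 CPM, against 55.8 to 1865 CPM for 12 T cell markers. Col3a1 alone made up most of the fibroblast sums, at 835 to 2836 CPM, and Lum was at 0 in Lipo-BiTE 1 and 2. In a mixture of cells, fewer cells of a type and less RNA per cell cannot be told apart. The labels do not say whether replicate libraries are separate animals, so errors and p-values rest on the spread among these libraries alone, which may be technical.

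The promoters of the cytokine gene, of the interleukin 23 receptor gene and of the lineage factor gene are shown because the interleukin 23 receptor signals through STAT3, and STAT proteins bind the spaced palindrome TTCNNNGAA. Each run is the 250 bases before the RefSeq start site, read 5′ to 3′ along the gene. Capitals mark a match to TTCNNNGAA, which reads the same on both strands.
Il17a, GRCm38.p6 chr1:20730655-20730904, plus strand: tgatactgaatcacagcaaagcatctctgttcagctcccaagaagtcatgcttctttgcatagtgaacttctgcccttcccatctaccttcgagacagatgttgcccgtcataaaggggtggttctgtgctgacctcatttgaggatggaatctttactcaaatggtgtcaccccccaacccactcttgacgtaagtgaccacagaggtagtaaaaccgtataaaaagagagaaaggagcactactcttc
Il23r, GRCm38.p6 chr6:67491856-67492105, minus strand: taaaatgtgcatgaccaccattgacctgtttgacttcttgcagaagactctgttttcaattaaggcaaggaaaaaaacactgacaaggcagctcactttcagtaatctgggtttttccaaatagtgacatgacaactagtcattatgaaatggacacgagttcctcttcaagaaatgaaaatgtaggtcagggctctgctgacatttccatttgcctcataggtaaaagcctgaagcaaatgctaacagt
Sox13, GRCm38.p6 chr1:133424213-133424462, minus strand: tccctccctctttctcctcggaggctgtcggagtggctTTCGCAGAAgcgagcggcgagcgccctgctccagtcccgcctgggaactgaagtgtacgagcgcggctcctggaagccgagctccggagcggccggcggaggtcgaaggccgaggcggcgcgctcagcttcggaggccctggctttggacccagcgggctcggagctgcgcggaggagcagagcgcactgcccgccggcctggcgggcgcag
The Sox13 promoter held 1 match, 212 to 204 bases before the start, and the Il17a and Il23r promoters held none. The Cd163l1 promoter, not printed, held none either. Of 32851 mouse promoters of the same length 7.0% held a match. Among the genes of the same pathway, Ccr6 held 2 matches before the first of its 2 start sites, at 120 to 112 and at 157 to 149 bases, and none before the other. AACAAT, a core bound by SOX proteins, was searched on both strands too, was in none of the promoters of Cd163l1, Il17a, Il23r and Sox13, and was in 9.4% of all. Of the 6 genes 4 were in the promoter table. A match of letters shows no binding.

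Cd163l1 (chromosome 7, 150649272 to 150661938, plus strand, on the C57BL/6NJ gene models of the deposited table) had the clearest pattern of the 6. It stood at 7.65, 4.78 and 5.35 CPM in PBS 1, 2 and 3, at 4.10, 2.11 and 2.33 CPM in Lipo-BiTE 1, 2 and 3, and at 33.2, 38.8 and 27.1 CPM in Lipo-TriTE 1, 2 and 3. All 3 Lipo-BiTE libraries lay below all PBS libraries, and all 3 Lipo-TriTE libraries lay above both. Group means were 5.92 ± 1.52, 2.85 ± 1.10 and 33.1 ± 5.85 CPM (SD, n = 3 each). The log2 fold change was −1.05 (SE 0.30) for Lipo-BiTE against PBS, 2.48 (SE 0.29) for Lipo-TriTE against PBS and 3.54 (SE 0.31) for Lipo-TriTE against Lipo-BiTE, the last an 11.6-fold difference. With any 1 library left out the same values ran from −1.41 to −0.84, from 2.36 to 2.68 and from 3.34 to 3.87.

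Trdc (chromosome 14, 50534499 to 50540461, plus strand) stood at 4.75, 1.65 and 1.13 CPM in the PBS libraries, at 1.97, 1.81 and 0.800 CPM in the Lipo-BiTE libraries and at 11.7, 6.85 and 8.75 CPM in the Lipo-TriTE libraries. PBS 1 was the high one of its group, PBS and Lipo-BiTE overlapped, and Lipo-TriTE overlapped neither. Means were 2.51 ± 1.96, 1.53 ± 0.634 and 9.09 ± 2.42 CPM. The log2 fold change was −0.70 (SE 0.55) for Lipo-BiTE against PBS, 1.87 (SE 0.53) for Lipo-TriTE against PBS and 2.57 (SE 0.55) for Lipo-TriTE against Lipo-BiTE. PBS 1 set the first of these: without it the value was 0.12, and the second became 2.68, or 6.42-fold in place of 3.66-fold. Trdc overlaps the antisense gene Gm43434 (28 counts over all libraries) and the segment Trdv5 (14 counts) on the opposite strand, and since the strand setting of the counting is not given, part of its reads may belong to either.

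Il17a (chromosome 1, 19213761 to 19217351, plus strand) stood at 1.78, 0.767 and 1.90 CPM in the PBS libraries, at 0.552, 0.226 and 0.582 CPM in the Lipo-BiTE libraries and at 1.26, 3.30 and 6.48 CPM in the Lipo-TriTE libraries. Each Lipo-BiTE library was below each PBS and each Lipo-TriTE library, whereas Lipo-TriTE 1 lay inside the PBS range. Means were 1.48 ± 0.623, 0.453 ± 0.198 and 3.68 ± 2.63 CPM, from 69, 18 and 178 counts. The log2 fold change was −1.69 (SE 0.70) for Lipo-BiTE against PBS, 1.30 (SE 0.63) for Lipo-TriTE against PBS and 2.99 (SE 0.70) for Lipo-TriTE against Lipo-BiTE. Lipo-TriTE 3 held the most: without it the second value was 0.60, 1.52-fold in place of 2.47-fold, and the third 2.29.

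Il23r (chromosome 6, 69026743 to 69114894, minus strand) was near the limit of detection, with 15, 10 and 51 counts in the 3 groups. It stood at 0.668, 0.0590 and 0.297 CPM in PBS, at 0.631, 0 and 0.145 CPM in Lipo-BiTE and at 1.02, 1.52 and 0.389 CPM in Lipo-TriTE. The 0 in Lipo-BiTE 2 allows up to 0.226 CPM. All 3 groups overlapped. The log2 fold change was −0.37 (SE 1.17) for Lipo-BiTE against PBS, and it turned from −2.07 without Lipo-BiTE 1 to 0.50 without PBS 1, so no direction can be given. For Lipo-TriTE it was 1.53 (SE 1.07) against PBS, up to 2.39 without PBS 1, and 1.90 (SE 1.12) against Lipo-BiTE, 1.31 without Lipo-BiTE 2 and 3.57 without Lipo-BiTE 1.

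Sox13 (chromosome 1, 141992115 to 142037465, minus strand) stood at 1.34, 1.83 and 0.951 CPM in PBS, at 1.74, 1.20 and 0.436 CPM in Lipo-BiTE and at 2.57, 4.06 and 2.27 CPM in Lipo-TriTE. The PBS and Lipo-BiTE libraries overlapped, and the Lipo-TriTE libraries lay above all others. Its log2 fold change was −0.29 (SE 0.55) for Lipo-BiTE against PBS, 0.07 without Lipo-BiTE 3. It was 1.11 (SE 0.53) for Lipo-TriTE against PBS and 1.40 (SE 0.55) against Lipo-BiTE.

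Zbtb16 (chromosome 9, 48800436 to 48986093, minus strand) went another way. It had 0, 1 and 1 counts in the PBS libraries, 8, 13 and 2 in the Lipo-BiTE libraries and 3, 10 and 1 in the Lipo-TriTE libraries. In CPM these were 0, 0.0590 and 0.0594, then 0.631, 0.978 and 0.145, then 0.146, 0.635 and 0.0648. Lipo-BiTE 1 and 2 and Lipo-TriTE 2 were the only libraries with more than 3 counts. Scaled to library totals, Lipo-BiTE counts were 13.7 times those of PBS (exact 95% interval 3.38 to 120) and Lipo-TriTE counts 6.39 times (1.47 to 57.9). The ratio of Lipo-TriTE to Lipo-BiTE was 0.467 (0.222 to 0.947), with overlapping libraries. These intervals treat counts as independent and hold no spread between libraries.

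**Figure D1:**
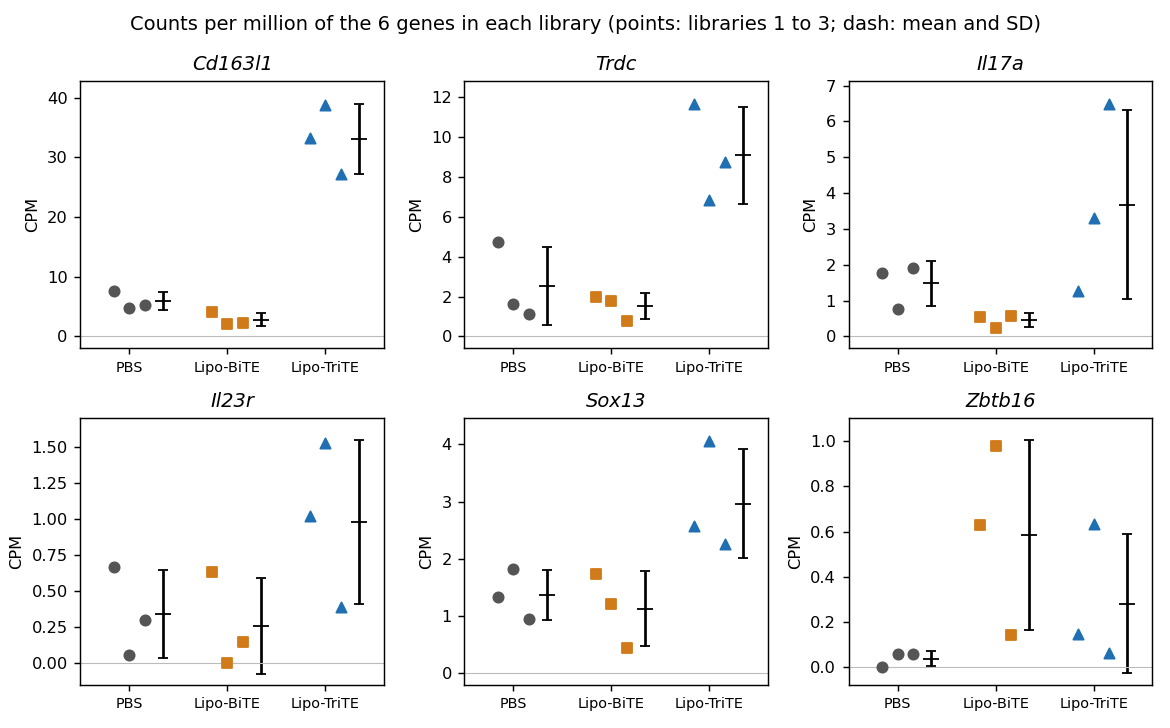
Levels of the 6 genes in CPM (vertical axis, its own linear scale in each panel) in the 3 libraries of PBS, Lipo-BiTE and Lipo-TriTE, with the group mean and SD beside the points. Lipo-TriTE libraries lie above all others for Cd163l1, Trdc and Sox13, and Lipo-BiTE libraries below all PBS libraries for Cd163l1 and Il17a.

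Per kilobase of gene, the measure on which genes can be compared, Cd163l1 was highest of the 6 in Lipo-TriTE at 9.57 ± 1.69 CPM per kb. Il17a followed at 3.14 ± 2.25, Trdc at 2.37 ± 0.631, Sox13 at 0.688 ± 0.223, Il23r at 0.393 ± 0.228 and Zbtb16 at 0.128 ± 0.140 (SD, n = 3 each). Of these neighbours Il17a and Trdc, Sox13 and Il23r, and Il23r and Zbtb16 differed by less than their SDs added together. In PBS the order was Cd163l1 at 1.72 ± 0.439, Il17a at 1.27 ± 0.532, Trdc at 0.656 ± 0.511, Sox13 at 0.318 ± 0.102, Il23r at 0.137 ± 0.123 and Zbtb16 at 0.0179 ± 0.0155 CPM per kb. In Lipo-BiTE Cd163l1 again stood first, at 0.824 ± 0.317, before Trdc at 0.398 ± 0.166, Il17a at 0.387 ± 0.169, Zbtb16 at 0.265 ± 0.189, Sox13 at 0.261 ± 0.152 and Il23r at 0.104 ± 0.133 CPM per kb. In PBS and in Lipo-BiTE no neighbours in the order differed by more than their SDs added together. Among groups, the order for Cd163l1, Trdc, Il17a, Il23r and Sox13 was Lipo-TriTE, PBS, Lipo-BiTE, and for Zbtb16 it was Lipo-BiTE, Lipo-TriTE, PBS. PBS and Lipo-BiTE means of Trdc, Il23r and Sox13 were closer than their SDs.

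For Lipo-BiTE against PBS, the first comparison the design holds, the median log2 fold change of the 5 genes that passed the filter was −0.70, beside −0.02 over all 16596 tested genes. Libraries did not overlap for Cd163l1 and Il17a, both lower, and for Zbtb16, higher, which is not among the tested genes. The Zbtb16 separation rests on 2 counts in Lipo-BiTE 3 against 1 count each in PBS 2 and PBS 3, all below the floor of 3 counts. Over all tested genes 19.4% did not overlap and were lower and 22.7% did not overlap and were higher, while the edgeR quasi-likelihood test called 3.22% lower and 13.8% higher. For Lipo-TriTE against PBS the median was 1.53, beside 0.00 over all genes. Libraries did not overlap for Cd163l1, Trdc and Sox13, all higher. The Zbtb16 values did not overlap either, but its lowest Lipo-TriTE library and 2 of the PBS libraries held 1 count each and differed in depth alone. Here 26.0% of all tested genes did not overlap and were higher and 23.4% were lower, with 18.9% called higher and 14.8% lower. For Lipo-TriTE against Lipo-BiTE the median was 2.57, beside −0.01 over all genes. Cd163l1, Trdc, Il17a and Sox13 did not overlap, all higher, where 16.1% of all tested genes did not overlap and were higher and 14.4% were lower, with 4.88% called higher and 5.21% lower.

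The numbers called over all genes moved with single libraries. In Lipo-BiTE against PBS 534 genes were called lower, and the number was 80 without Lipo-BiTE 1, 104 without Lipo-BiTE 2, 143, 199 and 176 without PBS 1, 2 and 3, 319 without Lipo-TriTE 2 and 971 without Lipo-BiTE 3. The 2283 genes called higher became 1455 without Lipo-BiTE 1. In Lipo-TriTE against PBS 2449 genes were called lower, and 1391 without PBS 2 or 1440 without PBS 3. Between the agents 810 genes were called higher and 865 lower, and without Lipo-BiTE 2 the numbers were 276 and 158. Leaving out PBS 2 or 3 lowered the second number to 555 or 550, and leaving out Lipo-BiTE 3 gave 476 and 556. Without Lipo-TriTE 1, 2 or 3 there were 565, 573 and 479 higher and 524, 418 and 293 lower. Nothing is read from these counts and medians, since the genes were chosen from the same comparisons and had to pass a filter, and the comparisons share libraries.

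**Figure D2:**
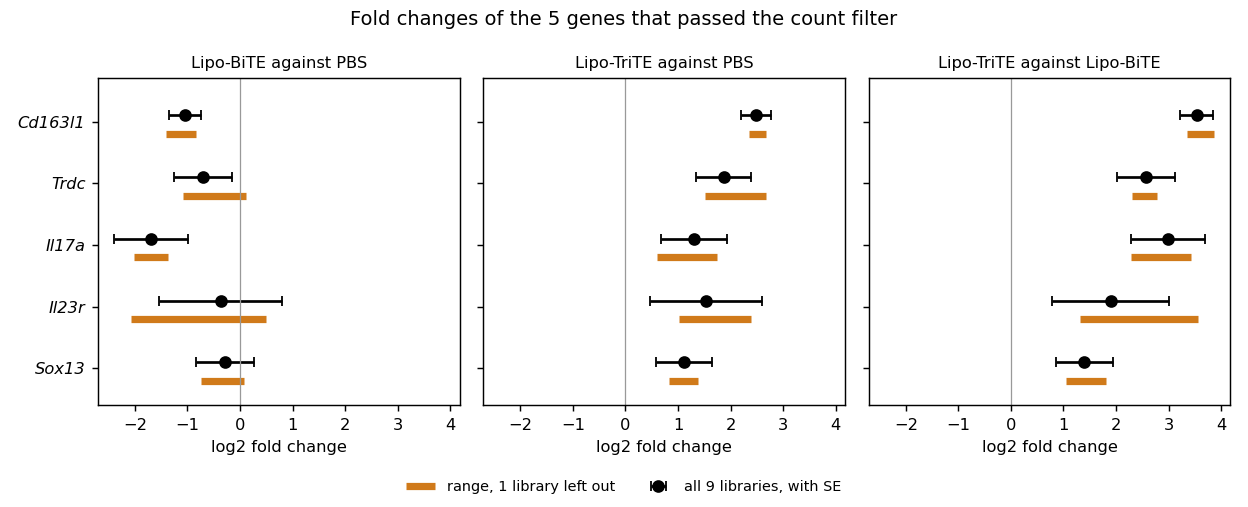
Log2 fold changes (horizontal axis) of the 5 genes that passed the count filter in the 3 comparisons, as points with standard errors, above the range of the same value with any 1 library left out (orange bars). The bars cross 0 for Trdc, Il23r and Sox13 in Lipo-BiTE against PBS and in no other case.

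T cell transcripts as a whole were higher with both agents. All 12 T cell markers rose in both comparisons with PBS, by a median of 5.76-fold in Lipo-BiTE and 20.9-fold in Lipo-TriTE, and 11 of 12 rose in Lipo-TriTE against Lipo-BiTE, by a median of 3.69-fold over the list. Among those 11, Cd3e was the only one followed by itself with libraries left out. It lost the call without Lipo-BiTE 2 (edgeR adjusted p = 0.0689). Each level was also set against the mean log2 CPM of those 12 markers in the same library. On that scale Cd163l1 stood at 0.91, −0.11 and 0.12 in the PBS libraries, at −3.06, −3.55 and −2.94 in the Lipo-BiTE libraries and at −2.09, −1.06 and −1.62 in the Lipo-TriTE libraries. The 3 groups did not overlap: relative to the T cell markers, Cd163l1 was 11.2-fold lower in Lipo-BiTE than in PBS and 3.72-fold lower in Lipo-TriTE than in PBS. This scale compares a gene between libraries and does not rank it against the markers, which differ in length. Trdc stood at 0.24, −1.57 and −2.0 in PBS, at −4.07, −3.76 and −4.34 in Lipo-BiTE and at −3.59, −3.54 and −3.24 in Lipo-TriTE, again without overlap.

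Il17a, Il23r and Sox13 were also lower relative to T cell markers in both treated groups than in PBS. Il17a was lower by a log2 difference of −3.88 in Lipo-BiTE and −3.31 in Lipo-TriTE, Il23r of −2.85 and −3.05, and Sox13 of −2.81 and −3.32. On this scale no treated library of these 3 genes overlapped PBS. For Il23r the separation did not hold in raw counts for every 1000 of the T cell markers. There PBS 2, with 1 count of Il23r, had 0.869, below Lipo-BiTE 1 at 1.33 and Lipo-TriTE 2 at 1.43. On the log2 scale Zbtb16 differed by −0.55 in Lipo-BiTE, overlapping PBS, and by −3.32 in Lipo-TriTE. With a prior count of 0.5 in place of 2 the first of these became 0.46, so its direction rests on the prior, and the second −2.59. With 0, 1 and 1 counts in PBS both values depend on the prior. In raw counts for every 1000 of the T cell markers, Zbtb16 had 0.592 ± 0.513 in the PBS libraries, 1.59 ± 1.15 in those of Lipo-BiTE and 0.245 ± 0.305 in those of Lipo-TriTE (SD, n = 3 each). Between the 2 agents, Cd163l1 was higher in Lipo-TriTE relative to T cell markers by 1.59 and Trdc by 0.60. The values for Il17a (0.57), Il23r (−0.20), Sox13 (−0.51) and Zbtb16 (−2.77) came with overlapping libraries for the first 3, and that of Il23r turned to 0.56 with the smaller prior. Zbtb16 did overlap in raw counts for every 1000 of the T cell markers, with Lipo-TriTE 2 at 0.597 and Lipo-BiTE 3 at 0.590. Cd163l1 differed by less, 1.38, against alpha beta T cell genes, and in Lipo-TriTE against PBS by −2.45 in place of −1.90.

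For every 1000 counts of the 12 T cell markers Cd163l1 had 96.3 ± 35.7 in the PBS libraries, 8.07 ± 1.72 in those of Lipo-BiTE and 26.3 ± 9.48 in those of Lipo-TriTE (SD, n = 3 each). Trdc had 85.1, 24.3 and 17.2 in PBS 1, 2 and 3, so that PBS 1 held most of that mean, 42.2 ± 37.3, and 4.22 ± 1.01 and 6.88 ± 0.925 in the treated groups. The alpha and beta chain genes had higher means in both treated groups than in PBS. Relative to the T cell markers, Trac, the constant region of the alpha chain, stood at −0.42 to 0.49 in PBS, at 0.54 to 0.76 in Lipo-BiTE and at 0.62 to 0.65 in Lipo-TriTE, so that all treated libraries lay above all PBS libraries. Trbc2, a constant region of the beta chain, had means of −1.04, −0.22 and 0.32, and the 3 groups did not overlap. Trbc1, the other one, had means of −0.86, −0.53 and −0.13, and its Lipo-BiTE libraries overlapped PBS. Cd3e, a subunit shared by all T cell receptors, stood at 2.82, 4.07 and 4.75 CPM in the PBS libraries, so its lowest PBS library was the one with the most Trdc.

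**Figure D3:**
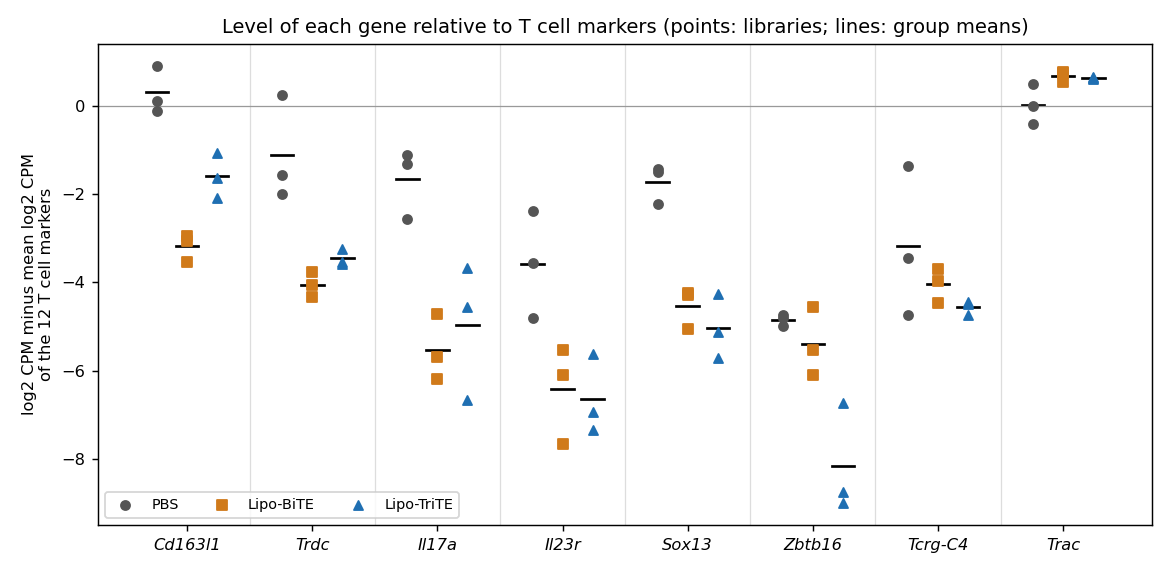
Log2 CPM of each gene minus the mean log2 CPM of 12 T cell markers in the same library (vertical axis), for the 6 genes, the gamma chain gene Tcrg-C4 and Trac, with 1 point per library and lines at group means. For Cd163l1 the 3 groups do not overlap, with means of 0.31, −3.18 and −1.59, while all treated libraries of Trac lie above its PBS libraries. For Tcrg-C4 both treated groups overlap PBS. Heights of different genes are not comparable, since the genes differ in length.

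The genes around these 6 were drawn from 7 lists of receptor chains, factors, cytokines, targets and ligands, of which 111 genes were in the table and 84 were tested. The lists were drawn up with results of these libraries known, so their counts and adjusted p-values are no independent test. In Lipo-BiTE against PBS 51 of the 84 rose and 2 fell, with a median log2 fold change of 1.64. In Lipo-TriTE against PBS 58 rose and 7 fell, with a median of 2.84. In Lipo-TriTE against Lipo-BiTE 23 rose and 5 fell, with a median of 0.37. Without Lipo-BiTE 2 the last comparison had 10 rises and no fall among 87 tested genes. The all-gene shares given above are the background for these counts and for those of each list below. In Lipo-BiTE against PBS 13.8% of all tested genes were called higher and 3.22% lower. For Lipo-TriTE against PBS the shares were 18.9% and 14.8%, and between the agents 4.88% and 5.21%.

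Of the other gamma and delta chain genes 17 were in the table and 3 passed the filter. In Lipo-BiTE against PBS the edgeR test called none of the 3, though 1 had an unadjusted p under 0.05 and DESeq2 called 1. Tcrg-C4, a constant region of the gamma chain, stood at 1.48, 0.354 and 0.0594 CPM in PBS, at 2.13, 1.88 and 0.727 CPM in Lipo-BiTE and at 5.20, 3.49 and 3.76 CPM in Lipo-TriTE. PBS 1 was again the highest of its group, and the Lipo-TriTE libraries lay above all others. It rose 6.72-fold in Lipo-TriTE against PBS (log2 2.75, SE 0.79, adjusted p = 0.0202), 19.1-fold without PBS 1, and lost the call without PBS 2 (adjusted p = 0.0735) or Lipo-TriTE 1 (0.0521). Neither its 2.56-fold difference in Lipo-BiTE against PBS (adjusted p = 0.26) nor its 2.63-fold difference between the agents (0.259) passed. The first of these did without PBS 1 (log2 2.87, adjusted p = 0.0363).

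The gamma segment Trgv2 had 3 counts over the PBS libraries, 23 over those of Lipo-BiTE and 86 over those of Lipo-TriTE. It rose in Lipo-TriTE against PBS (edgeR adjusted p = 0.0073) with a count ratio of 26.2 (exact 95% interval 8.66 to 129). Its ratio of 9.12 in Lipo-BiTE (2.76 to 47.4) did not pass (adjusted p = 0.0776), and did without PBS 2 (0.0382) or Lipo-BiTE 3 (0.0439). The delta segment Trdv4 was at 2.43 to 2.98 CPM in Lipo-TriTE and 0.0594 to 1.00 CPM in PBS, without passing (4.70-fold, adjusted p = 0.061), and passed without Lipo-BiTE 1 or 3 or with only the 2 groups compared in the fit (0.0440 to 0.0489). In Lipo-TriTE against Lipo-BiTE the edgeR test and DESeq2 called none of the 3 chain genes, and 1 had an unadjusted p under 0.05. The rest of the chain genes had at most 30 counts in any group. Tcrg-V4 had 3, 0 and 30 counts and Tcrg-V6 had 10, 3 and 21 in the 3 groups, both named after their values were seen. Reads of variable segments can be split among near copies, so their counts are uncertain.

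Of the type 17 programme, the factors, receptors and surface proteins of cells that make interleukin 17, 16 genes were tested. In Lipo-BiTE against PBS 8 rose and 1 fell, in Lipo-TriTE against PBS 12 rose and 1 fell, and between the agents 7 rose and none fell by the edgeR test or DESeq2, with 1 lower at an unadjusted p under 0.05.

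The gene 5830411N06Rik, which encodes the related scavenger receptor SCART2, stood at 0.356 to 1.41 CPM in PBS, 0.291 to 0.903 CPM in Lipo-BiTE and 8.57 to 15.4 CPM in Lipo-TriTE, an 18.5-fold rise in Lipo-TriTE against Lipo-BiTE (edgeR adjusted p = 0.00239). Serpinb1a, a protease inhibitor of interleukin 17 cells and neutrophils, rose 6.13-fold in the same comparison, from 9.63 ± 4.90 to 59.0 ± 5.58 CPM (adjusted p = 0.00261). For both genes all Lipo-TriTE libraries lay above all others.

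Other genes of the type 17 list rose with both agents. Rora, a nuclear receptor of type 17 and other lymphocytes, rose 4.10-fold in Lipo-BiTE and 7.92-fold in Lipo-TriTE (edgeR adjusted p = 0.000907 and 5.66e-05). Batf, a factor of activated lymphocytes, rose 5.30-fold and 9.40-fold, and Icos, a costimulatory receptor, 3.21-fold and 12.1-fold. Maf, a factor of interleukin 17 and other T cells that macrophages also express, rose 7.18-fold in Lipo-BiTE, from 7.23 to 51.7 CPM. Il1r1, the interleukin 1 receptor, which stromal cells also carry and which is named after its values were seen, was the 1 gene of the list that fell in either comparison with PBS, by −0.63 and −0.99 on the log2 scale (adjusted p = 0.0494 and 0.00354). The first call was lost without any 1 PBS library, Lipo-BiTE 1 or 2 or Lipo-TriTE 2 or 3 and with only the 2 groups in the fit (0.0553 to 0.158).

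Ccr6, the receptor that draws interleukin 17 cells and B cells to CCL20, had 2 counts over the PBS libraries, 36 over those of Lipo-BiTE and 544 over those of Lipo-TriTE. Its count ratio was 21.4 (exact 95% interval 5.51 to 184) in Lipo-BiTE against PBS and 248 (68.4 to 2054) in Lipo-TriTE against PBS. The first call (edgeR adjusted p = 0.0373) was lost without any PBS library, Lipo-BiTE 1 or 2 or Lipo-TriTE 3 (0.0502 to 0.128), and the second held (0.000635). Against Lipo-BiTE it rose 10.6-fold in Lipo-TriTE (adjusted p = 0.0227), not without Lipo-BiTE 2 (0.0615) or Lipo-TriTE 1 (0.0707, 6.34-fold). Blk, a kinase of B cells and of gamma delta T cells that make interleukin 17, stood at 0.817 to 1.36 CPM in PBS, 0.436 to 0.947 CPM in Lipo-BiTE and 60.1, 25.4 and 26.8 CPM in Lipo-TriTE (61.0-fold against Lipo-BiTE, adjusted p = 0.000145).

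Il17f, the partner cytokine of Il17a, did not pass the filter, with 11, 2 and 20 counts in the 3 groups. Its highest library was PBS 1 at 0.742 CPM. The ratio of counts was 0.216 in Lipo-BiTE against PBS (exact 95% interval 0.0233 to 0.991) and 7.67 in Lipo-TriTE against Lipo-BiTE (1.86 to 67.7), with overlapping libraries in both.

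B cell, mast cell and dendritic cell markers moved with the Lipo-TriTE rise. All 8 B cell markers, Blk among them, rose in Lipo-TriTE against Lipo-BiTE by a median of 48.2-fold. Their summed level was 8.79 to 12.1 CPM in PBS, 15.0 to 32.1 CPM in Lipo-BiTE and 436 to 1248 CPM in Lipo-TriTE. Of 5 tested mast cell markers 4 rose (1 without Lipo-BiTE 2 and 2 without Lipo-TriTE 3), with sums of 57.2 to 143, 76.7 to 171 and 485 to 606 CPM, and of 7 dendritic cell markers 6 rose, with sums of 22.7 to 32.4, 50.8 to 64.2 and 279 to 365 CPM. Of 6 natural killer cell markers 2 rose (1 without Lipo-BiTE 2 or 3 or Lipo-TriTE 3), with sums of 30.2 to 37.4, 60.7 to 110 and 175 to 277 CPM. No marker of these lists was at 0 in all libraries. Their part in the levels of Cd163l1, Trdc, Ccr6 and the others was not tested. Neutrophil and macrophage markers rose with both agents, 7 of 7 and 6 of 7 in each comparison with PBS. Between the agents the edgeR test called none of either list. DESeq2 called 2 macrophage markers lower and no neutrophil marker, and the same numbers had an unadjusted p under 0.05.

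Of 16 lineage factors and receptors of gamma delta T cells, 11 rose in each comparison with PBS. None fell in Lipo-BiTE by the edgeR test, by DESeq2 or at an unadjusted p under 0.05, which counted 0 each. In Lipo-TriTE Sox4, a factor related to SOX13, and Etv5 fell, by −1.16 and −0.77 on the log2 scale (edgeR adjusted p = 0.0257 and 0.0187), both named after their values were seen. These falls are 12.5% of the list, beside 14.8% of all tested genes called lower. Sox4 lost the call without PBS 2 or 3 or Lipo-TriTE 1 or 3 (0.0706 to 0.0990), and Etv5 without PBS 3 (0.0922) or Lipo-TriTE 3 (0.0604). Cd27, a receptor carried by most T cells and absent from many gamma delta T cells that make interleukin 17, rose 6.51-fold in Lipo-BiTE and 37.4-fold in Lipo-TriTE (adjusted p = 0.000907 and 1.85e-05). Between the agents 5 rose and none fell, though DESeq2 called 2 lower and 5 were lower at an unadjusted p under 0.05. Lef1 rose 8.64-fold (adjusted p = 0.000148) and Tcf7 4.92-fold (0.00407), both partners of beta-catenin in naive T cells, and Cd27 5.74-fold (0.00207).

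Of 21 tested genes of innate-like T and lymphoid cells, the group to which the PLZF programme of Zbtb16 belongs, 15 rose and none fell in Lipo-BiTE against PBS, by the edgeR test, by DESeq2 or at an unadjusted p. In Lipo-TriTE 17 rose and 1 fell. Slamf1 and Slamf6, receptors by which natural killer T cells are selected and which other lymphocytes carry too, rose 15.5-fold and 42.2-fold in Lipo-TriTE (adjusted p = 4.81e-05 and 2.99e-05), and Slamf1 6.08-fold in Lipo-BiTE (0.000913). Klrg1, a receptor of effector lymphocytes, rose 5.17-fold and 11.2-fold (0.000765 and 1.17e-05).

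Between the agents 10 innate-like genes rose, led by Slamf6 at 7.73-fold (edgeR adjusted p = 0.00205), and Rnf128, an E3 ligase, fell by −0.96 on the log2 scale (0.0333, named after its values were seen). The latter call held with PBS 1 or Lipo-BiTE 1 left out and was lost without any other 1 library, with the replicate block, with total counts as the scale and with only the 2 groups in the fit (0.0507 to 0.113). The count of rises stood at 1 without Lipo-BiTE 2, and at 6, 7 and 6 without Lipo-BiTE 3, Lipo-TriTE 1 and Lipo-TriTE 3. Il1rl1, the interleukin 33 receptor of mast cells and innate lymphoid cells, rose 2.30-fold (0.00993), Txk, a kinase of T and natural killer cells, 4.48-fold (0.00885) and Fyn, a kinase of the T cell receptor, 2.16-fold (0.00959). These 3 lost their calls without Lipo-BiTE 2, at 0.0591, 0.0522 and 0.055.

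On the inducing side, Il23a, the subunit that makes interleukin 23 distinct, did not pass in any comparison. It stood at 0.891, 0.590 and 0.178 CPM in PBS, at 1.26, 1.58 and 0.800 CPM in Lipo-BiTE and at 0.291, 0.888 and 0.389 CPM in Lipo-TriTE, with overlap between all groups. Its log2 fold change was 1.14 (SE 0.74, edgeR adjusted p = 0.314), −0.08 (SE 0.76, 0.951) and −1.21 (SE 0.74, 0.338) in the 3 comparisons. Il12b, the subunit shared by interleukins 12 and 23, rose 11.0-fold in Lipo-TriTE against PBS (adjusted p = 0.000291). Its 3.22-fold rise against Lipo-BiTE (0.0249) was lost without any 1 of the Lipo-BiTE libraries, Lipo-TriTE 2 or Lipo-TriTE 3 (0.0517 to 0.105).

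Il1b, encoding interleukin 1 beta, was abundant and rose with both agents. It stood at 86.9, 154 and 149.9 CPM in PBS, at 2838, 1627 and 552 CPM in Lipo-BiTE and at 709.5, 1681 and 2144 CPM in Lipo-TriTE. The rise was 12.8-fold in Lipo-BiTE, 8.38-fold without Lipo-BiTE 1, and 11.6-fold in Lipo-TriTE (edgeR adjusted p = 0.00207 and 0.00151). The agents did not differ beyond their spread (log2 −0.15, SE 0.53, adjusted p = 0.901). In all, 8 of 12 tested inducing genes rose in each comparison with PBS and none fell by the edgeR test, by DESeq2 or at an unadjusted p, and without Lipo-BiTE 1 the first of these counts was 5. Between the agents Il12b rose and Tgfb1 fell (log2 −1.19, edgeR adjusted p = 0.0163). Group means of Tgfb1 were 178 ± 34.9 CPM in PBS, 367 ± 82.9 CPM in Lipo-BiTE and 161 ± 51.4 CPM in Lipo-TriTE. The Tgfb1 call between the agents was lost without Lipo-BiTE 2 (0.0531), Lipo-TriTE 2 (0.0571) or Lipo-TriTE 3 (0.0531).

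Of 14 tested receptors and targets of interleukin 17, 8 rose and 1 fell in Lipo-BiTE against PBS, and 6 rose and 3 fell in Lipo-TriTE. Many of them are also made by neutrophils and other myeloid cells. Il17ra, the common receptor subunit, rose 3.19-fold in Lipo-BiTE and 3.00-fold in Lipo-TriTE (edgeR adjusted p = 0.00746 and 0.00539), while Il17rc, its partner in stromal and epithelial cells, fell in Lipo-TriTE from 42.9 ± 5.08 to 19.4 ± 4.93 CPM (log2 −1.15, SE 0.21, adjusted p = 0.00198). The matrix protease Mmp3, named after its values were seen, fell in both, by −0.87 and −0.86 on the log2 scale (0.00573 and 0.00351).

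Between the agents no target rose, by the edgeR test, by DESeq2 or at an unadjusted p, and 3 fell. Cxcl1, a neutrophil chemokine of epithelial and stromal cells, stood at 36.5, 62.9 and 48.9 CPM in Lipo-BiTE and at 13.8, 18.2 and 26.0 CPM in Lipo-TriTE (log2 −1.36, SE 0.26, edgeR adjusted p = 0.0114). Cebpb, a factor of inflammation, fell by −1.67 (edgeR adjusted p = 0.0338) and Il17rc by −0.82 (0.0306). Group means of Cebpb were 65.0 ± 23.7 CPM in PBS, 592 ± 333 CPM in Lipo-BiTE and 186 ± 38.1 CPM in Lipo-TriTE. All treated libraries of Cebpb thus lay above all PBS libraries. Without Lipo-BiTE 2 all 3 calls were lost (0.0556, 0.0954 and 0.108). Cebpb was also lost without PBS 3, Lipo-BiTE 1 or any Lipo-TriTE library (0.0526 to 0.113) and with the replicate block (0.0601). Il17rc was also lost without PBS 2 or 3, Lipo-BiTE 3, Lipo-TriTE 1 or 3, with total counts as the scale and with only the 2 groups in the fit (0.0524 to 0.0867). Il17a itself was higher in Lipo-TriTE than in Lipo-BiTE, at 3.68 against 0.453 CPM.

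Of 10 butyrophilin-like and nonclassical ligand genes in the table, which encode proteins seen by gamma delta T cells and related receptors, 2 passed the filter. Btnl2 rose 18.3-fold in Lipo-TriTE against PBS (edgeR adjusted p = 0.00352), 88.0-fold if PBS 3 is left out, and 6.87-fold in Lipo-BiTE (0.0455), the latter resting on 9 counts in PBS and lost without PBS 1 or 2, Lipo-BiTE 1 or 2 or any Lipo-TriTE library, with the replicate block and with only the 2 groups in the fit (0.0565 to 0.161; 32.3-fold without PBS 3). H60b, a ligand of the receptor NKG2D, rose 7.11-fold in Lipo-TriTE against PBS (0.00776; 12.9-fold without PBS 1). Between the agents neither was called by edgeR or DESeq2, nor had an unadjusted p under 0.05.

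**Figure D4:**
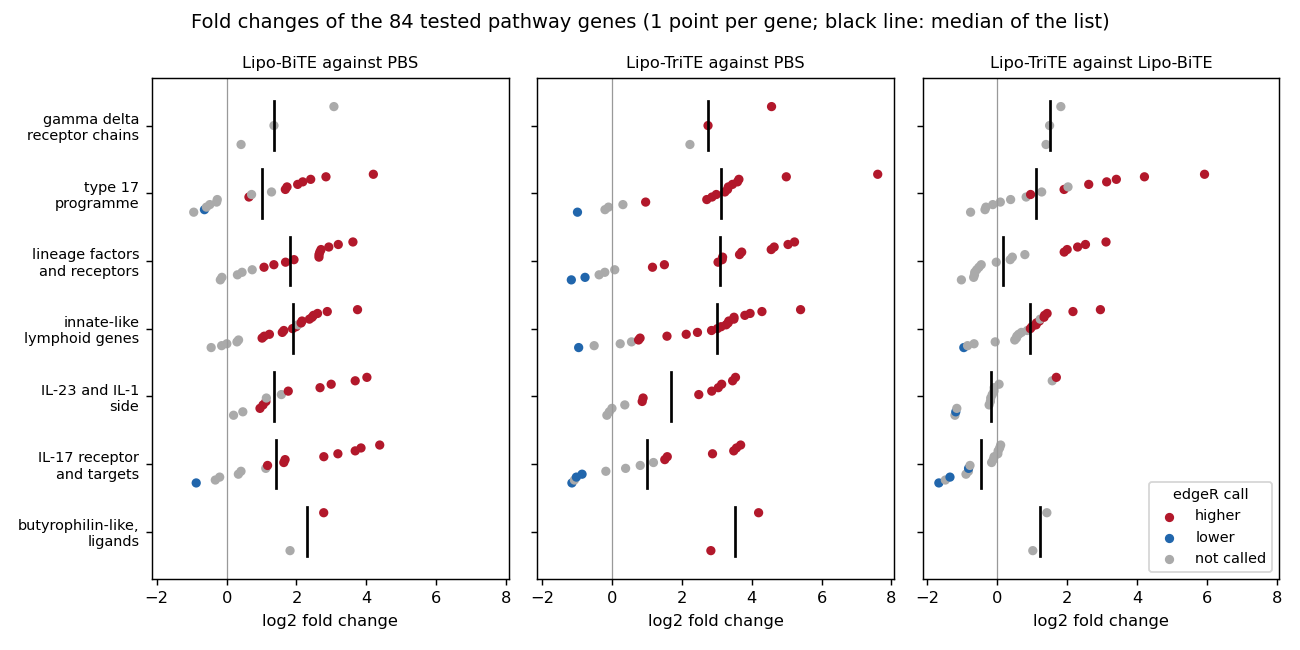
Log2 fold changes (horizontal axis) of the 84 tested genes of the 7 lists (rows) in the 3 comparisons, with 1 point per gene coloured by its edgeR call at an adjusted p under 0.05 and a black line at the median of each list. In Lipo-TriTE against Lipo-BiTE 23 genes are called higher, the largest being Blk at 5.93, and the 3 called genes among the interleukin 17 receptors and targets lie below 0. Lists and genes were drawn up with results of these libraries known.

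Likeness to each gene was measured over the 9 libraries as the root-mean-square difference of log2 CPM after each gene was centred on its own mean, among 11816 named genes with a mean of at least 1 CPM. Points share libraries and depth, and groups dominate the measure. Cox6a2, a subunit of cytochrome oxidase, was among the 5 nearest genes of both Cd163l1 (0.46) and Trdc (0.45). The median over the candidates was 1.59 for Cd163l1 and 1.33 for Trdc. Cox6a2 stood at 0.475 to 1.78 CPM in PBS, 0.473 to 0.526 CPM in Lipo-BiTE and 5.01 to 6.31 CPM in Lipo-TriTE. The nearest genes of Cd163l1 also included Reln (0.43), Ptprf (0.46) and Cd5l (0.59), and those of Trdc included Nipsnap1 (0.46), Kcnmb4 (0.48) and Serpini1 (0.52).

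Il17a had other neighbours: Catsperd (0.52), Timp3 (0.61), Hlf, Dnm3 and Lrrc4c (0.65), with a median over candidates of 1.32. For Il23r they were Adgrv1 (0.50), Vangl2, Grip1, Gpr179 and Cntn1 (0.63), and for Sox13 Usp2 (0.37), Ccdc40, Col27a1, P2rx1 and Lrp4 (0.45), with medians of 1.23 and 0.90. Among the 5 genes themselves, Cd163l1 and Trdc were the closest pair at 0.65, and Il17a and Sox13 the farthest at 1.08.

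**Figure D5:**
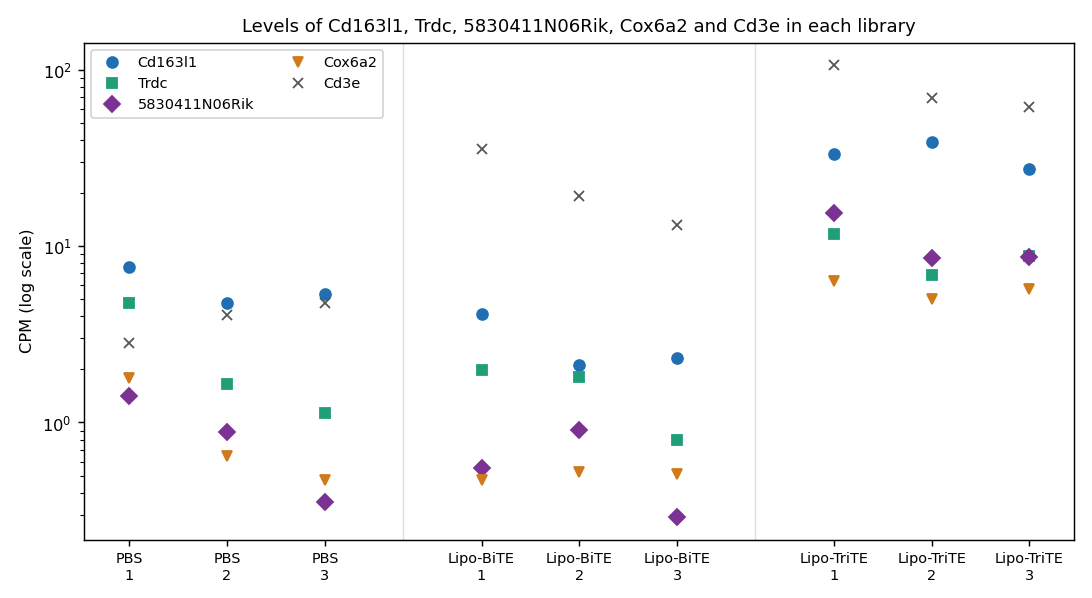
CPM on a log scale (vertical axis) of Cd163l1, Trdc, 5830411N06Rik, Cox6a2 and Cd3e in each of the 9 libraries. All 5 genes are highest in the Lipo-TriTE libraries. Levels of different genes are not comparable here, since the genes differ in length.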

How the data were processed

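Transcript levels were measured by bulk RNA sequencing in 9 mouse tumour libraries, 3 per group. The deposited table holds raw counts per gene, whole numbers with no normalization, on C57BL/6NJ gene models, per the file headers. Columns named Untreated were taken as the PBS libraries, since the other columns name the agents. For the aligner, counter, strand setting and genome build, names were not given in the sources used here.

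The 6 genes and all lists were chosen with earlier results of these data known. Counts of all 9 libraries were fitted with edgeR 4.0.16 in R 4.3.3 (filterByExpr, TMM scaling, robust quasi-likelihood F test, group means as the design). Of 44806 entries 16596 were tested. P-values were adjusted by Benjamini-Hochberg over them and called at an adjusted p under 0.05. Log2 CPM used a prior count of 2. Of the entries, 3710 carried no gene name, and 52 names were repeated. Libraries of 13152783 to 20273548 counts limit detection to about 0.2 CPM. The fit was tested on simulated data, with the same spread for every gene and changes only in genes above a minimum count. That test does not cover genes near the floor.

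Named genes were the 6, up to 4 genes with the smallest p of each list and comparison, and Il17f, Ccr6, Il23a, Il1b, Il17ra, the gamma chain constant genes, Cd3e and Trac. Genes named outside that rule are marked. Pathway genes were tested, the 6 were not, though the lists too were drawn up with results known. One gene the rule names is not reported here. Alternatives were DESeq2 1.42.0, other scalings and filters, a replicate block, fits of the 2 groups alone and each library left out. The numbers in the labels do not pair the samples. PBS 2 and 3 were the most alike (chi-square per degree of freedom 4.81, against 22.6 to 89.7 for the other pairs within groups) and differed beyond sampling noise.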

Additional observations from a re-analysis of the deposited data

How the results depend on the processing

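Of the pathway genes, 53 were called for Lipo-BiTE and 65 for Lipo-TriTE, each against PBS, and 28 between the agents. With 1 library left out they ranged from 40 to 56, from 58 to 67 and from 10 to 31. The lowest of these, 10, all higher, came without Lipo-BiTE 2. DESeq2 called 57, 67 and 34, and the other scalings and filters stayed within 1.5 times the counts. Same-numbered libraries did not deviate together (r −0.19 to 0.08), and the fit with a replicate block called 51, 65 and 26. Single genes were followed under the other scalings, the replicate block, fits of the 2 groups alone and each library left out. DESeq2 and the other filters were not part of that. Of the alternatives for fold changes of Cd163l1, Trdc, Il17a, Il23r and Sox13, 190 stayed within 1 SD and 3 did not: Il23r without Lipo-BiTE 1 (−2.07 and 3.57) and Trdc without PBS 1 (2.68). Of the levels relative to T cell markers 34 stayed and 2 moved, as given above. For named pathway genes the call was lost in 111 of these alternatives and gained in 16, and no call changed sign. In 1857 the status was unchanged, which includes genes called in neither fit. Without any single library 23 of 25, 28 of 29 and 10 of 21 called genes named by the rule kept their call. Over all genes, total counts without TMM moved the median log2 fold change to −0.16 for Lipo-BiTE against PBS and to 0.11 between the agents. Calls higher and lower then stood at 2079 and 988, in place of 2283 and 534, and at 1099 and 451, in place of 810 and 865. With 1 library left out, higher calls over all genes ranged from 1455 to 2656, from 2575 to 3390 and from 276 to 1077 in the same 3 comparisons, and lower calls from 80 to 971, from 1391 to 2644 and from 158 to 1120. Depth limits Il23r, Zbtb16, Il17f and the gamma and delta segments, whose counts lie near the floor in most libraries. The cause of these changes was not tested.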
